A study of Mus musculus with 6 samples.

Results

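The TAM receptors are 3 related receptor tyrosine kinases encoded by Axl, Mertk and Tyro3, and their bridging ligands are encoded by Gas6 and Pros1. These 5 genes were taken by symbol from the 29587 gene rows of the deposited table, and each was found on 1 row. The table holds messenger RNA profiles of dead mouse osteoblasts, in 3 libraries labelled young and 3 labelled old. In both groups adherent cells grown out of bone pieces were passaged as bone marrow mesenchymal stem cells, turned into osteoblasts in osteogenic medium and then irradiated with ultraviolet light until most took up Trypan Blue. The genotype is labelled none in both groups, and neither the age in months nor the sex or strain is given in the labels used here. Nothing in the labels ties a library to an animal or a culture of its own, so p-values here describe the spread among these libraries, which could be technical only.

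Dying cells expose the lipid phosphatidylserine on their surface, and phagocytes engulf them in the process called efferocytosis. Gas6 and protein S, the product of Pros1, bind that lipid through a domain whose glutamates are carboxylated with the help of vitamin K, and bind a TAM receptor at their other end, so that they bridge corpse and eater. GAS6 binds all members of the receptor family, and protein S binds MERTK and TYRO3. MERTK is best known from macrophages and the retinal pigment epithelium, AXL from fibroblasts, endothelium and activated dendritic cells, and TYRO3 from the nervous system. TAM signalling also dampens the response of innate immune cells to interferon and to bacterial products. The series is about efferocytosis of dead osteoblasts in aging, and the comparison asks which of these transcripts differ between the dead osteoblasts of old and of young mice.

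The matrix gene Col1a1 stood at 1550 ± 424 (young) and 1528 ± 31.8 RPKM (old) and Sparc at 1094 ± 75.0 (young) and 1037 ± 6.94 RPKM (old), each as mean ± SD of 3 libraries. RPKM is reads per kilobase of gene length, scaled to the assigned reads of the library, so levels of different genes can be set side by side. Of 11 listed osteoblast markers 8 were tested, and 1 rose and 1 fell, where 1.47% of all tested genes rose and 0.0999% fell. The matrix protein gene Spp1 rose, at 290 ± 75.9 (young) and 732 ± 68.6 RPKM (old) (limma adjusted p = 0.0307), and the transcription factor gene Sp7 fell, at 8.44 ± 0.567 (young) and 4.90 ± 0.0281 RPKM (old) (limma adjusted p = 0.0186). The mineralisation gene Alpl, at 0.614 ± 0.126 (young) and 0.487 ± 0.0684 RPKM (old), was below 1 RPKM in each library. So was the osteocalcin gene Bglap, at 0.416 ± 0.0372 (young) and 0.742 ± 0.138 RPKM (old). The osteocyte gene Dmp1 was at 1.35 ± 0.328 (young) and 2.38 ± 0.0692 RPKM (old). Bglap and Dmp1 were higher in each old library than in each young one, as were Spp1 and Bglap2. Runx2, at 5.11 ± 0.809 (young) and 3.91 ± 0.203 RPKM (old), was lower in each old library, as was Sp7. Neither Dmp1 nor Runx2 passed (limma adjusted p = 0.121 and 0.423). The groups overlapped for Ibsp, whose mean was lower in old. Old lay above young without overlap in 10.6% of all tested genes and below it in 10.2%. Of 14 listed markers of macrophages and other blood cells 12 had a row, and 2, Lyz2 and Cd68, reached 1 RPKM in any library. The summed level of those with a row was 8.43 to 9.68 RPKM in young and 9.81 to 11.1 RPKM in old. The macrophage gene Adgre1 was at 0 in each library but old replicate 3, and the leukocyte gene Ptprc was at no more than 0.0028 RPKM. Lyz2 was at 7.30 ± 0.762 (young) and 8.14 ± 0.512 RPKM (old). Cx3cr1, too low to enter the test, was at 0.219 ± 0.107 (young) and 0.561 ± 0.0291 RPKM (old), higher in each old library. Cartilage markers were present, with Col2a1 at 40.7 ± 17.0 (young) and 38.6 ± 0.897 RPKM (old) and Sox9 at 17.3 ± 3.97 (young) and 16.3 ± 0.942 RPKM (old), and their list summed to 34.6 to 73.2 RPKM in young, lowest in young replicate 1, and 53.2 to 56.8 RPKM in old. Of the osteoclast markers Ctsk alone reached 1 RPKM, at 31.8 ± 4.12 (young) and 27.8 ± 0.991 RPKM (old), and no endothelial or adipocyte marker did. Young replicate 1 stood apart: it was the lowest or the highest of the 6 libraries in 77% of tested genes and in 4 of the 5 TAM genes, and mitochondrial transcripts made up 1.05% of its reads against 1.616 to 2.293% elsewhere. Results are therefore given with and without it, and the part of these differences in the results was not tested. Without it, 2 of the 8 tested osteoblast markers rose, Spp1 and Dmp1, and 5 fell, Col1a1, Col1a2, Runx2, Sp7 and Ibsp. Both tested cartilage markers, Col2a1 and Sox9, fell too. In that comparison 13.2% of all tested genes were called higher and 19.4% lower.

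Axl was higher and Pros1 lower in every old library than in every young library, Gas6 was level, and Mertk and Tyro3 overlapped between the groups. None of the 5 passed the test over all 6 libraries (limma, a linear model that shares its variance estimate among genes, on log2(RPKM + 1), with adjusted p under 0.05 over all genes tested), where 1.57% of 12015 tested genes passed. Limma's voom on whole reads recovered from the table also called none of them. At an unadjusted p under 0.05 limma had 2 of the 5, Axl and Pros1, against 11.2% of all tested genes. None of 5 ratios between members within a library overlapped between the groups. Each had an exact permutation p = 0.1, the smallest that 3 against 3 libraries allow. The ratio of Axl to Mertk moved least when single libraries were left out, as both genes were lower by similar factors in young replicate 1. Axl stood 2.09 to 2.54 times above Mertk in the young libraries and 5.74 to 6.62 times above it in the old ones.

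The 250 bases before a RefSeq start site of Axl, Pros1 and Mertk are shown because these 3 genes passed the test once young replicate 1 was left out. They come from RefSeq on GRCm38.p6, the assembly also called mm10, and all 5 members had an entry. Each is written 5′ to 3′ in the direction of its gene, in lower case, with capitals where a searched motif matched.
Axl promoter, chr7:25788734-25788983, minus strand: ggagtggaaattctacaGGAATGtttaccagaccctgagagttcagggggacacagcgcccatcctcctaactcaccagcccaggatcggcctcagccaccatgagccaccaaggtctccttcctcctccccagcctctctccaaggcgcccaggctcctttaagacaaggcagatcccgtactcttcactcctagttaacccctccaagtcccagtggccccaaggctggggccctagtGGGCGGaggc
Pros1 promoter, chr16:62854057-62854306, plus strand: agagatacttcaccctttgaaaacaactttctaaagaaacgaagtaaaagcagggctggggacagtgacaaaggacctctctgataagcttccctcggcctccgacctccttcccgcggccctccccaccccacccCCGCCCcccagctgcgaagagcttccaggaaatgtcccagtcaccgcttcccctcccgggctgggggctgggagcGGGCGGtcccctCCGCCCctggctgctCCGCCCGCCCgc
Mertk promoter, chr2:128698665-128698914, plus strand: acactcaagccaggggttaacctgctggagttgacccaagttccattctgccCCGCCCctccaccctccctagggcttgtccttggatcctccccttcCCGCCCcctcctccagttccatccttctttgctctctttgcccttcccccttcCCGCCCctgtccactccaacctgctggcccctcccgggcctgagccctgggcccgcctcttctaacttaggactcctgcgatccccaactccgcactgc
The motifs searched on both strands were the interferon-stimulated response element with its middle bases left free, TGANTCA, bound by AP-1, GGAATG, bound by TEAD factors, ACGTG, bound by hypoxia-inducible factors, and GGGCGG, bound by SP1. In Axl the capitals mark 1 TEAD match starting 233 bases before the start site and 1 SP1 match starting 10 bases before it. The start site used need not be the outermost one of a gene. The RefSeq span of Axl ends at 25788924, so part of its window, with the SP1 match, lies within that span. The Tyro3 window, searched but not shown, starts at 119799264, within a RefSeq span that starts at 119797740. Among all 32851 promoter entries of the same length 12.6% held the TEAD letters and 32.7% the SP1 letters. Pros1 held 5 SP1 matches, of which those starting 12 and 8 bases before the start site overlap, and Mertk held 3. None of the 5 members' windows held the interferon, AP-1 or hypoxia letters, which 3.0%, 6.7% and 16.6% of all entries held. A match is a run of letters and not a shown binding site, and a window without one says nothing about the factor.

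Axl lies at chr7:25757273-25788705 of mm10 on the minus strand, with 19 merged exons and 5033 exonic bases. Its RPKM was 2.82, 8.42 and 7.83 in young replicates 1, 2 and 3, against 15.3, 13.5 and 15.8 in old replicates 1, 2 and 3. All 3 old libraries were above all 3 young ones, as was so for 10.6% of tested genes, and young replicate 1 was far below its own group. The group means ± SD were 6.35 ± 3.08 (young) and 14.9 ± 1.20 RPKM (old), a ratio of 2.34. The log2 fold change of 1.21 ± 0.35 (SE) did not pass (limma adjusted p = 0.24). Once young replicate 1 was left out, Axl rose by 0.80 ± 0.077 on the log2 scale (± SE; adjusted p from limma = 0.00124), and the ratio of the means was 1.83. In that comparison 13.2% of all tested genes were called higher. These values rest on 920 reads in young replicate 1 and 3266 to 6494 in the other libraries. In bulk RNA of this kind, fewer cells carrying a transcript and less of it per cell cannot be told apart.

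Mertk, the receptor gene best known from macrophages that clear dead cells, lies at chr2:128698956-128802894 of mm10 on the plus strand, with 19 merged exons and 4336 exonic bases. Its RPKM was 1.21, 4.03 and 3.08 in the young replicates, against 2.66, 2.26 and 2.38 in the old. The old values lay between young replicate 1 and the other two young libraries, so the groups overlapped. With all libraries the log2 fold change was -0.057 ± 0.30 (± SE; adjusted p from limma = 0.99). Leaving out young replicate 1, Mertk fell, at -0.40 ± 0.10 on the log2 scale (± SE; adjusted p from limma = 0.0278), where 19.4% of all tested genes were called lower. Young replicates 2 and 3 differed by more from each other than the old libraries did, and this call rests on those 2. Mertk had 341 reads in young replicate 1 and 738 to 1355 in the others.

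Tyro3, the third receptor gene, lies at chr2:119797733-119818104 of mm10 on the plus strand, with 21 merged exons and 6198 exonic bases. Its RPKM was 1.69, 2.38 and 2.25 in the young replicates, against 2.03, 2.00 and 2.08 in the old. The groups overlapped, and the log2 fold change was -0.025 ± 0.11 (± SE; adjusted p from limma = 0.988). It did not pass without young replicate 1 either, at -0.13 ± 0.059 (± SE; adjusted p from limma = 0.143).

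Gas6 was the highest of the 5 genes in each library and lay above 93.3 to 94.0% of tested genes. It lies at chr8:13465374-13494490 of mm10 on the minus strand, with 15 merged exons and 2548 exonic bases, of which 34 bases (1.33%) are shared with Tmem255b on the opposite strand. Its RPKM was 79.8, 79.2 and 77.9 in the young replicates, against 80.3, 78.1 and 75.3 in the old. The groups overlapped and all 6 values lay close together, young replicate 1 included. The log2 fold change was -0.020 ± 0.080 (± SE; adjusted p from limma = 0.987), and -0.012 ± 0.050 without young replicate 1 (± SE; adjusted p from limma = 0.867). The gap between young replicate 1 and the other young libraries exceeded that of 3.3% of tested genes for Gas6, 96.5% for Axl and 92.7% for Mertk.

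Pros1, whose product protein S is also an anticoagulant cofactor in plasma, lies at chr16:62854307-62929346 of mm10 on the plus strand, with 16 merged exons and 4088 exonic bases. Its RPKM was 17.4, 10.8 and 11.4 in the young replicates, against 9.03, 9.36 and 9.31 in the old. All 3 old libraries were below all 3 young ones, as was so for 10.2% of tested genes, and young replicate 1 was the highest. The group means ± SD were 13.2 ± 3.66 (young) and 9.24 ± 0.176 RPKM (old). The log2 fold change of -0.45 ± 0.18 (SE) did not pass (limma adjusted p = 0.431). Leaving out young replicate 1, Pros1 fell, at -0.24 ± 0.054 on the log2 scale (± SE; adjusted p from limma = 0.0185), again among the 19.4% of genes called lower.

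**Figure D1:**
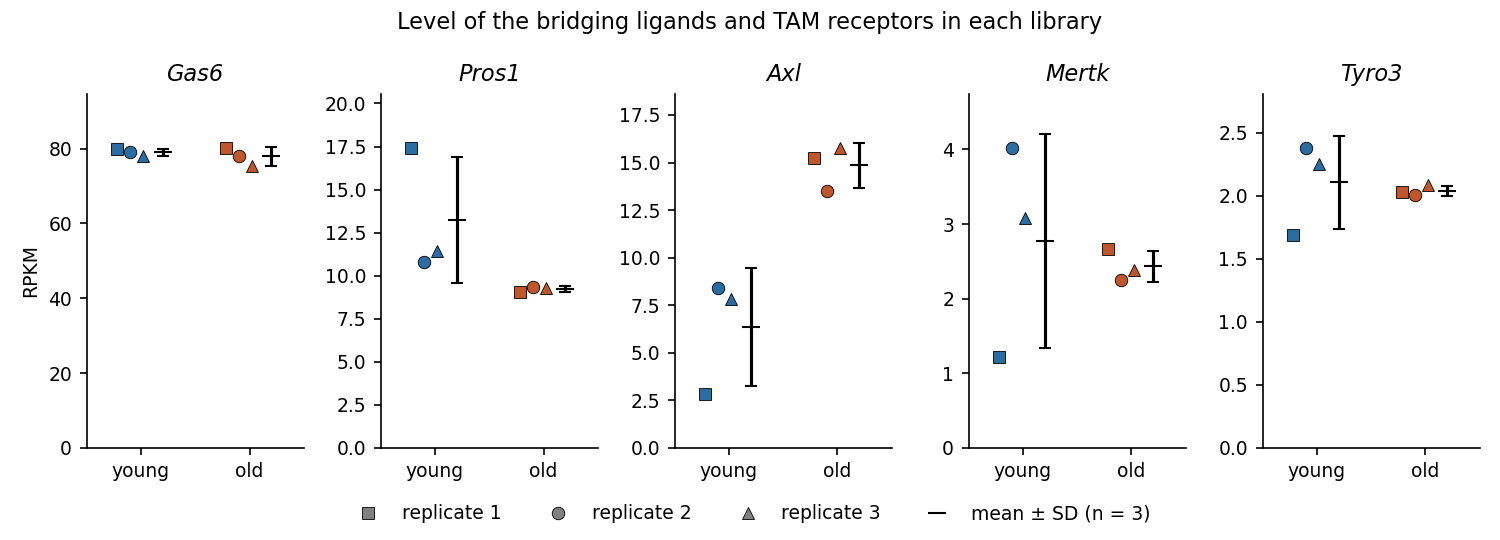
RPKM of the ligand genes Gas6 and Pros1 and the receptor genes Axl, Mertk and Tyro3 (a linear axis from 0 for each gene) in 3 young (blue) and 3 old (orange) libraries, with the replicate number as the shape of the point and the mean ± SD beside the points. The old libraries lie above the young in Axl and below them in Pros1, and young replicate 1 is the extreme point in each gene but Gas6.

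Leaving out young replicate 1 made the difference of Axl and of Pros1 smaller and that of Mertk larger, with a smaller standard error for each of the 5 genes. Of the 5 genes 1 was then called higher and 2 lower, in a comparison that called 32.6% of all tested genes.

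**Figure D2:**
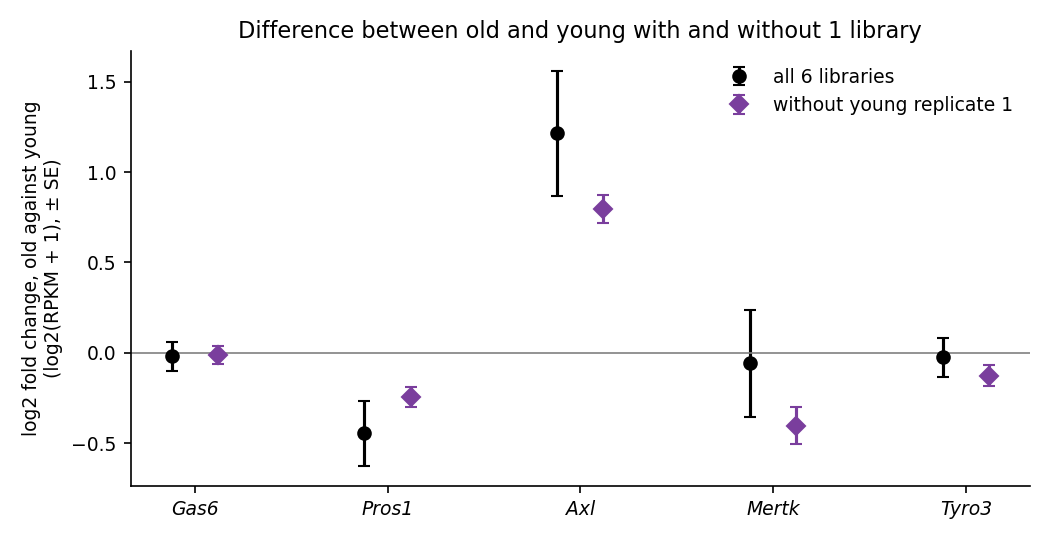
Old minus young difference in log2(RPKM + 1) with its standard error, for all 6 libraries (black circles) and without young replicate 1 (purple diamonds). Axl goes from 1.21 to 0.80, Pros1 from -0.45 to -0.24 and Mertk from -0.057 to -0.40, while Gas6 and Tyro3 stay near 0.

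The order of the levels differed between the groups at the second place. In each young library it began Gas6, Pros1, Axl, and in each old library Gas6, Axl, Pros1. Mertk stood above Tyro3 in 5 libraries and below it in young replicate 1. The ranges of Mertk and Tyro3 overlapped in young and were apart in old.

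Ratios of 2 genes within a library do not depend on how libraries are scaled to each other. The ratio of Axl to Mertk was 2.32, 2.09 and 2.54 in the young replicates, against 5.74, 5.99 and 6.62 in the old. Here young replicate 1 lay between the other young libraries, since Axl was 2.88 times and Mertk 2.93 times lower in it than in their mean. The difference between old and young was 1.40 on the log2 scale, with group SDs of 0.140 (young) and 0.106 (old), and it was 1.33 to 1.47 when each of the 6 libraries was left out in turn. An exact two-sided permutation test gave p = 0.1, the smallest that 3 against 3 libraries allow, and 0.1 after Benjamini-Hochberg adjustment over the 5 ratios computed. Each of these 5 ratios holds Axl or Pros1, whose own levels did not overlap between the groups, as was so for 20.8% of tested genes. The ratios are therefore not independent of those genes or of each other.

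The ratio of Axl to Tyro3 was 1.67, 3.53 and 3.48 in young and 7.52, 6.74 and 7.58 in old, also without overlap. Axl made up 49.3, 56.8 and 59.5% of the summed receptor RPKM in the young replicates, against 76.5, 76.0 and 77.9% in the old. The share of Mertk was 23.9 ± 3.01% (young) and 12.6 ± 0.783% (old), and that of Tyro3 20.9 ± 7.48% and 10.6 ± 0.613%, as mean ± SD. The sum of the 3 receptors was 5.72 to 14.8 RPKM in young and 17.8 to 20.3 RPKM in old, without overlap. That sum holds Axl, while Mertk and Tyro3 overlapped between the groups, so it is no result separate from Axl. Old lay above young without overlap in 10.6% of all tested genes.

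On the ligand side the groups were closer. The sum of Gas6 and Pros1 was 89.3 to 97.2 RPKM in young and 84.6 to 89.3 RPKM in old. Gas6 was 4.58, 7.33 and 6.81 times as high as Pros1 in the young replicates, against 8.89, 8.35 and 8.09 times in the old. Ligand transcripts exceeded receptor transcripts in each library, 17.0, 6.07 and 6.79 times in young and 4.48, 4.93 and 4.18 times in old. Gas6 alone was 28.3, 9.41 and 9.95 times as high as Axl in young and 5.26, 5.79 and 4.77 times in old. The log2 differences between old and young were 0.46 for Gas6 to Pros1, -1.40 for Gas6 to Axl, 1.41 for Axl to Tyro3 and -0.98 for ligands to receptors, each with the same exact permutation p = 0.1. These 4 differences became 0.26, -0.88, 1.05 and -0.51 without young replicate 1.

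**Figure D3:**
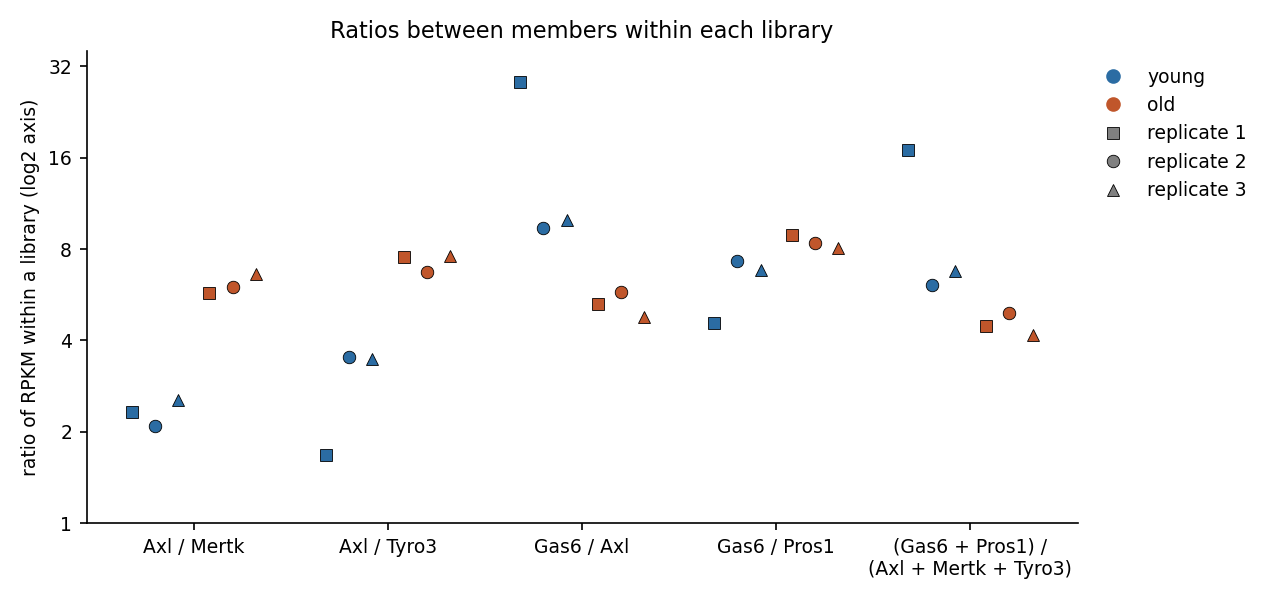
Ratios of RPKM between members within each library, on a log2 axis, for young (blue) and old (orange) libraries with the replicate number as the shape of the point. In each of the 5 ratios the groups do not overlap, and only in Axl to Mertk does young replicate 1 lie among the other young libraries. Each ratio holds Axl or Pros1, whose own levels do not overlap either.

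Among receptor tyrosine kinase genes, the wider family of growth factor receptors, Axl ranked higher in old than in young. Of 52 such genes with a row, the TAM receptors included, Axl ranked 8 by mean RPKM in young and 4 in old, and 14 in young replicate 1 alone. The genes above it in old were Ptk7, a receptor-like protein of planar polarity signalling, Ddr2, a collagen receptor, and Pdgfrb, a receptor for platelet-derived growth factor. Mertk ranked 16 and 15 and Tyro3 21 and 19. Of 51 other receptor tyrosine kinase genes listed, 21 entered the test and 0 passed it by limma or by voom, with 2 at an unadjusted p under 0.05. These were Flt1, a receptor for vascular endothelial growth factor, at 3.48 ± 0.130 (young) and 4.99 ± 0.0890 RPKM (old) (limma adjusted p = 0.0763), and Ephb3, an ephrin receptor, at 3.21 ± 0.523 (young) and 2.30 ± 0.110 RPKM (old) (limma adjusted p = 0.31). The median log2 fold change of those tested was 0.059, against 0.0055 over all tested genes. Leaving out young replicate 1, Flt1 rose and 9 fell, Pdgfra, Fgfr2 and Ddr2 among them, with a median of -0.11, where 13.2% of all tested genes were called higher and 19.4% lower, with a median of -0.055.

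**Figure D4:**
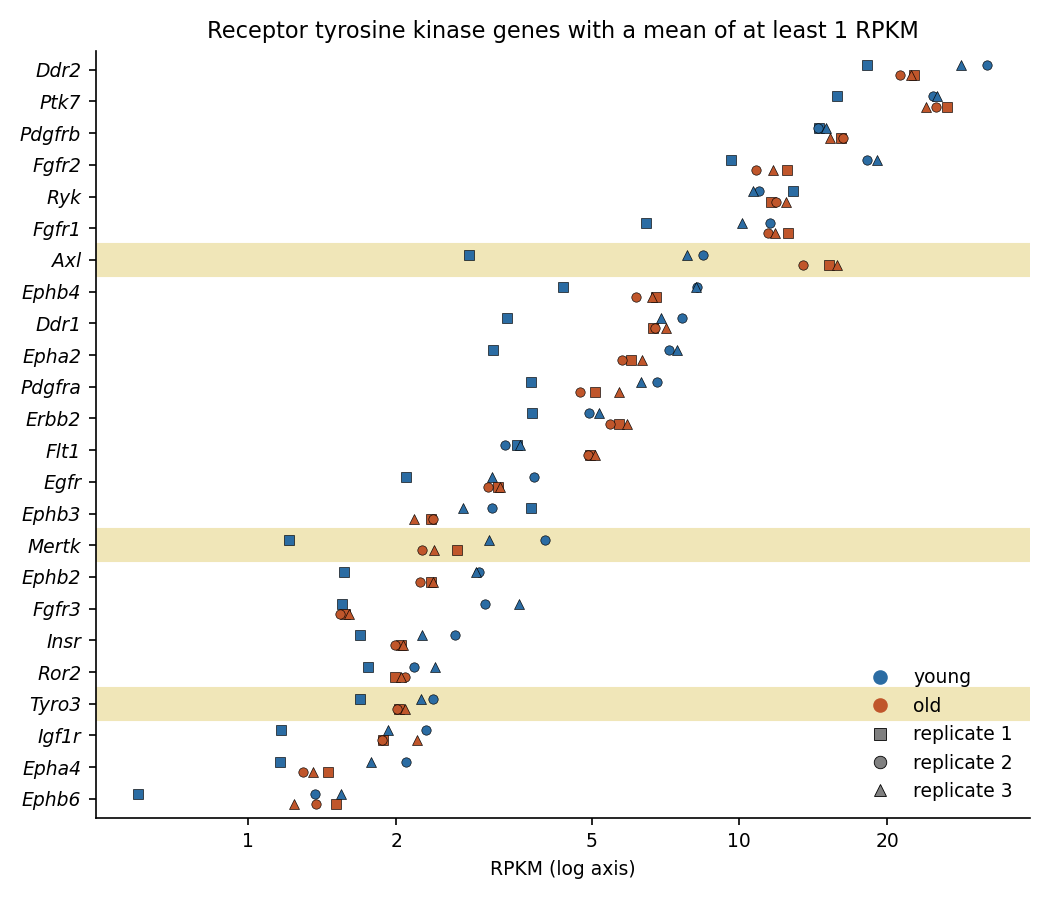
RPKM on a log axis of the receptor tyrosine kinase genes with a mean of at least 1 RPKM over all libraries, ordered by that mean, with young libraries in blue, old in orange and the TAM receptors shaded. Axl spans 2.82 to 15.8 RPKM, with all old libraries to the right of all young ones.

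Of 8 listed genes for shedding and the vitamin K cycle, which act on the TAM proteins, all were tested, 1 rose and 0 fell by limma, with the same counts by voom. Of all tested genes 1.47% rose and 0.0999% fell by limma. The sheddase gene Adam10 was at 13.1 ± 2.58 (young) and 12.5 ± 1.12 RPKM (old), and its relative Adam17 at 4.21 and 3.98 RPKM, and their enzymes release the outer part of AXL and MERTK. Ggcx, the carboxylase that modifies both ligands, was at 8.54 ± 1.45 (young) and 8.65 ± 0.450 RPKM (old). Vkorc1, the reductase that recycles vitamin K and is blocked by warfarin, was at 19.3 ± 3.80 (young) and 17.4 ± 1.35 RPKM (old), and its paralogue Vkorc1l1 at 4.86 ± 0.541 (young) and 4.43 ± 0.0654 RPKM (old). Vkorc1l1 fell once young replicate 1 was left out, at -0.19 on the log2 scale (limma adjusted p = 0.0401), where 19.4% of all tested genes were called lower. Aifm2, another vitamin K reductase, was at 1.78 ± 0.176 (young) and 1.80 ± 0.125 RPKM (old).

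The gene that rose was Nqo1, a quinone reductase that can reduce vitamin K and is known chiefly as a target of the oxidative stress factor NRF2. Its RPKM was 7.72, 12.9 and 11.1 in the young replicates, against 40.7, 39.5 and 45.6 in the old. All old libraries were above all young ones, with a log2 fold change of 1.92 ± 0.18 (± SE; adjusted p from limma = 0.00507).

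Other genes for vitamin K-dependent proteins were led by Mgp, which encodes an inhibitor of calcification. Of 13 listed, 12 had a row and 2 were tested, Mgp and Prrg2, and 0 passed by limma or by voom, with 1 at an unadjusted p under 0.05. Mgp had 724, 592 and 613 RPKM in young and 1076, 1019 and 957 in old, without overlap, and a log2 fold change of 0.66 ± 0.12 (± SE; adjusted p from limma = 0.0753). It passed with quantile normalization (0.59, limma adjusted p = 0.0366), with library weights (0.76, limma adjusted p = 6.31e-05), with each library's gene length trend removed (0.63, limma adjusted p = 0.0496) and without young replicate 1 (0.75, limma adjusted p = 0.00091). Library weights called 2119 genes higher and 2957 lower, and 32.6% of tested genes were called without young replicate 1. Mgp did not pass with median-of-ratios scaling, upper-quartile scaling or the replicate block (limma adjusted p = 0.204, 0.154 and 0.34). Nor did it pass when any other library was left out (limma adjusted p = 0.22 to 0.45). Prrg2 was at 2.25 ± 0.0363 (young) and 2.34 ± 0.130 RPKM (old). The osteocalcin gene Bglap2, at 0.478 ± 0.104 (young) and 1.01 ± 0.0966 RPKM (old), did not enter the test.

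Of 3 further genes whose products have been proposed as TAM ligands, Lgals3, which encodes galectin-3, was tested. Lgals3 had 17.6, 9.28 and 10.0 RPKM in young and 21.8, 24.1 and 24.5 in old, with a log2 fold change of 0.93 ± 0.23 (± SE; adjusted p from limma = 0.173). The groups did not overlap, and young replicate 1 was here the young library nearest to old. Lgals3 rose once that library was left out, by 1.20 on the log2 scale (limma adjusted p = 0.000113), where 13.2% of all tested genes were called higher. Tub was at 0.0792 ± 0.0370 (young) and 0.114 ± 0.0306 RPKM (old) and Tulp1 at 0.604 ± 0.138 (young) and 0.594 ± 0.0813 RPKM (old), and neither was tested.

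Of 15 listed genes of TAM signalling and feedback 12 were tested, and 0 fell by limma or by voom, where 0.0999% of all tested genes fell by limma. The interferon receptor gene Ifnar1 was at 2.31 ± 0.699 (young) and 2.44 ± 0.0629 RPKM (old), and Ifnar2 at 8.61 ± 1.75 (young) and 9.04 ± 0.119 RPKM (old). Once young replicate 1 was left out, Ifnar2 rose by 0.22 on the log2 scale (limma adjusted p = 0.0269). The kinase gene Akt1, at 29.6 ± 9.60 (young) and 30.2 ± 0.647 RPKM (old), then fell, at -0.21 (limma adjusted p = 0.0192). In that comparison 13.2% of all tested genes were called higher and 19.4% lower. The feedback inhibitor gene Socs3 was at 25.1 ± 2.58 (young) and 21.5 ± 0.481 RPKM (old), and Twist1, a repressor induced by AXL signalling, at 18.6 ± 0.265 (young) and 21.1 ± 1.02 RPKM (old). Pik3r1, a subunit of the kinase that signals through AKT, was at 3.82 ± 1.16 (young) and 5.11 ± 0.715 RPKM (old).

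The engulfment machinery downstream of such receptors was tested in 8 of 11 listed genes. By limma 0 were called, with 0 also at an unadjusted p under 0.05 and 0 called by voom. Gulp1, an engulfment adaptor, was at 5.49 ± 1.38 (young) and 3.91 ± 0.271 RPKM (old), and Rhog, a small GTPase upstream of Rac1, at 3.78 ± 0.892 (young) and 5.11 ± 0.426 RPKM (old). The scaffold gene Bcar1 was at 4.63 ± 1.11 (young) and 5.47 ± 0.469 RPKM (old), and the adaptor gene Crk at 10.7 ± 1.51 (young) and 9.47 ± 0.626 RPKM (old). Dock1, Crk and Gulp1, 3 of those 8, fell once young replicate 1 was left out, against 19.4% of all tested genes. Of 9 other phosphatidylserine receptor genes listed, 8 had a row and 1, Ager, entered the test, at 1.25 ± 0.212 (young) and 0.861 ± 0.158 RPKM (old) (limma adjusted p = 0.401). Each TAM receptor gene had a higher mean RPKM in both groups than any of those with a row.

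Over all 7 lists around the members, 53 of 110 listed genes were tested and 2 rose, which is 3.77% of those tested against 1.47% of all tested genes. None fell by limma, and the median log2 fold change was 0.070. Leaving out young replicate 1, 6 rose and 14 fell, or 11.3% and 26.4% of those tested, against 13.2% and 19.4% of all tested genes. The median was then -0.098 against -0.055 over all genes.

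The genes most like each member over the 6 libraries were found by the root mean square difference between log2(RPKM + 1) values, each centred on the gene's own mean, among 10050 other tested genes. For Axl they were Plekha4, Xdh and Hmga1, at 0.145, 0.180 and 0.181. Hmga1, a chromatin architectural protein, had 5.62, 11.1 and 9.47 RPKM in young and 21.6, 21.9 and 22.8 in old (limma adjusted p = 0.0584). Xdh, the purine-degrading xanthine dehydrogenase, had 2.36, 5.08 and 4.31 RPKM in young and 10.7, 9.75 and 12.2 in old (limma adjusted p = 0.0626). Plekha4 had 0.619, 2.10 and 1.92 RPKM in young and 4.33, 4.77 and 5.08 in old (limma adjusted p = 0.0997). Each of these has its lowest value in young replicate 1, as Axl has, and did not pass the test with all libraries. Each rose once young replicate 1 was left out, with adjusted p from limma of 0.00028 for Hmga1, 0.0012 for Xdh and 0.00057 for Plekha4. In that comparison 13.2% of all tested genes were called higher. These genes were picked for their likeness to Axl over the same libraries. Their shared pattern and calls therefore follow from the choice and are no separate result.

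For Mertk the nearest were Blzf1, Atxn7l3b and Hcfc1, at 0.0509, 0.0556 and 0.0573. Hcfc1, a chromatin-associated host cell factor, was at 6.76 ± 2.92 (young) and 5.70 ± 0.530 RPKM (old). For Pros1 they were Cep19, Smim8 and Cmpk1, at 0.0407, 0.0441 and 0.0472, with Cmpk1, a pyrimidine nucleotide kinase, at 21.2, 14.0 and 15.2 RPKM in young and 12.1, 12.3 and 12.8 in old. For Tyro3 they were Raet1e, Fam160a2 and Zfp677, at 0.0132, 0.0141 and 0.0152, and for Gas6 they included Exo5 at 0.0117 and Rspry1 at 0.0198. Between the members themselves the smallest such difference was 0.115, between Tyro3 and Gas6, and the largest was 1.04, between Axl and Pros1.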

How the data were processed

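The authors deposited 1 table of RPKM values for 6 libraries, with exon positions and gene lengths. The submitters' processing notes name fastp, STAR, HTSeq, edgeR and the build mm10, with no versions. The annotation and the strand setting of the counting are not given in the labels used. RPKM times gene length gave whole reads for 100.0% of values within 0.01 of a read, 64881180 to 84535939 per library. Even numbers made up 77.5 to 79.3% of genes with 1 to 5 reads, so reads are not independent molecules.

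Libraries were grouped by title. Old was compared with young in limma 3.58.1 (R 4.3.3) on log2(RPKM + 1) with a variance trend, two-sided, in genes of at least 1 RPKM in at least 3 libraries, with Benjamini-Hochberg adjustment over 12015 genes and a threshold of 0.05. The pseudocount of 1 understates the fold change of low genes. All 5 members passed the filter, each with at least 1 RPKM in every library. The fit was tested on simulated data. Values of 3 named genes are not reported here, though counts over their lists include them. Ratios within libraries were compared by exact permutation. Named genes were the members, the processing and further ligand lists, those of smallest p or highest level in the other lists, and 3 nearest profiles per member. Sp7, Spp1, Dmp1, Alpl, Col2a1, Sox9, Ctsk, Pdgfra, Fgfr2, Dock1, Ifnar1 and Ifnar2 were chosen after their values were seen. So were Runx2, Ibsp, Col1a2, Lyz2, Cx3cr1 and Akt1. Members and lists were chosen with earlier results of these data known. Alternatives covered pseudocount, filter, scaling, variance trend, library weights, voom, gene length (loess span 0.5), thresholds, replicate block and each library left out.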

Additional observations from a re-analysis of the deposited data

How the results depend on the processing

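With all 6 libraries 177 genes were called higher and 12 lower in old. Higher and lower calls numbered 99 and 8 at a mean RPKM of at least 5, 2119 and 2957 with library weights, 219 and 44 with the gene length trend removed, 254 and 62 at an adjusted p under 0.1, 106 and 0 at a log2 fold change of at least 1, and 82 and 0 with the replicate block. Leaving out each library in turn, they ranged from 80 to 1589 and from 0 to 2329, the highest without young replicate 1. The labels do not say whether same-numbered young and old libraries belong together. Deviations of same-numbered libraries correlated at -0.026, -0.436 and 0.329 across genes, and those of different-numbered ones at -0.417 to 0.431. The same-numbered pairs did not stand out from the others, and with so few libraries a pairing is neither shown nor excluded. The replicate block called none of the 5 members. Library weights gave young replicate 1 a weight of 0.0425 against 0.819 to 4.12 for the others. With them Axl rose (0.86 on the log2 scale) and Mertk (-0.26) and Pros1 (-0.29) fell, so that 1 member was called higher and 2 lower. In the lists around the members 10 genes were then higher and 16 lower, and 4 were higher at an adjusted p under 0.1.

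Leaving out each library in turn, 0 to 1 members were called higher and 0 to 2 lower, and 2 to 6 list genes higher and 0 to 14 lower. The log2 fold change ranged from 0.80 to 1.45 for Axl and from -0.57 to -0.24 for Pros1. The groups do not overlap for these 2 genes, so leaving out 1 library could not change their direction. In the settings that kept all libraries it was 0.86 to 1.37 for Axl and -0.48 to -0.29 for Pros1. Leaving out each library gave -0.40 to 0.19 for Mertk, -0.13 to 0.040 for Tyro3 and -0.041 to 0.0043 for Gas6, whose groups overlap. Gas6 was at 0.010 with library weights. The within-library ratios did not overlap between the groups, so leaving out 1 library could not change their direction. The replicate block left their differences unchanged, and with a pseudocount of 0.1 they kept their direction. Leaving out each library gave log2 differences of 0.26 to 0.60 (Gas6 to Pros1) and -1.68 to -0.88 (Gas6 to Axl). For the others they were 1.05 to 1.59 (Axl to Tyro3) and -1.25 to -0.51 (ligands to receptors). Uncalled genes near 0 changed sign. With upper-quartile scaling, quantile normalization, library weights and the length trend removed, Ggcx was at -0.0010, -0.0068, -0.050, -0.0084 and Aifm2 at -0.0086, -0.014, -0.061, -0.021. Leaving out each library gave -0.10 to 0.11 for Ggcx, -0.042 to 0.041 for Aifm2, -0.20 to 0.064 for Adam10, -0.30 to 0.15 for Adam17, -0.27 to 0.0023 for Vkorc1, -0.33 to 0.19 for Atxn7l3b, -0.36 to 0.18 for Blzf1, -0.47 to 0.11 for Hcfc1, -0.14 to 0.036 for Fam160a2, -0.15 to 0.021 for Raet1e and -0.15 to 0.013 for Zfp677. The cause was not tested for any of these. Mertk and Tyro3, at 341 to 1355 reads, have the lowest depth of the members and were not tested at a mean RPKM of at least 5.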
